A study of Mus musculus with 22 samples.

Results

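This account concerns 8 genes in CD11b+ cells of mouse brain, namely the processed pseudogenes Rps3a2, Rps3a3, Gm9118, Gm6477, Gm7240 and Gm16589, the retrogene Ahcyl and its parent gene Ahcy, out of 56691 genes in the deposited tables. The members were chosen by their levels in these same animals, because a copy's reads were plentiful in some animals and nearly absent in others. Their levels and fold changes are therefore a description, and nothing is read from the calls of their fits. Nor is anything read from groups that did or did not overlap, for which no share of all genes is given. Bulk RNA sequencing covered 20 CF-1 wildtype pups, an outbred stock, in 5 groups of 4. In the HIE groups, a model of neonatal hypoxic-ischemic encephalopathy, the dam received 50 µg/kg of LPS at E18 and the pups 8 min of hypoxia on P6; the dams of control pups received saline. HIE and control brains were taken at P7 and at P14, and a hypoxia group, for which the sources used here give no protocol, at P14. The time labels of the P7 controls run from P8 to P11, while their protocol label states P7. Pups whose names share a prefix are called a litter here. There were 10 litters of 2 pups, 2 litters in each group: N5 and N8 in HIE P7, P6H55 and P6H63 in control P7, P4H1 and P6H12 in HIE P14, P4H4 and P6H8 in control P14, and P6H7 and P6H9 in hypoxia P14. Every litter had 1 treatment, so treatment and litter cannot be told apart, and the HIE P7 pups were all male. Library names end in RNA1, RNA2, RNA3 or RNA4, and the labels do not say what these suffixes mean. The pups of P6H55, P6H8 and P6H12 had no suffix in common, so their differences cannot be told apart from differences between suffixes. In N8, P4H4 and P6H9, whose littermates also differ below in some members, both pups had the same suffix. Names begin with N in both HIE P7 litters and with P6H in both P7 control litters, and the labels do not say what these beginnings mean. At P7, treatment therefore cannot be told apart from them. At P14 both hypoxia litters begin with P6H, while the HIE and the control group each hold 1 litter with P4H and 1 with P6H. The P7 and P14 tables were deposited separately, so no test was made across days.

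A processed pseudogene, or retrocopy, arises when a messenger RNA is copied back into DNA and inserted elsewhere in the genome, without the introns of its parent gene. Most retrocopies lack a promoter of their own and are not translated, while a few keep an open reading frame and are called retrogenes. Because a young retrocopy differs from its parent at few bases, short reads can be difficult to place between them, and an insertion may be present in one mouse stock and not in another. The parents have housekeeping roles: Rps3a1 encodes a protein of the small ribosomal subunit, Npm1 a chaperone of the nucleolus, Aida a protein that binds axin, and Ahcy the hydrolase that removes S-adenosylhomocysteine, the product of methylation reactions.

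The copies were nearly identical to the transcripts of their parents, with 1 exception. Ahcyl (GRCm39 chromosome 16, 45973348 to 45975440, minus strand) matched the Ahcy transcript, whose 10 exons lie on chromosome 2, over 2083 bases with 6 differences (99.7% identity) and no gap. Rps3a2 (chromosome 14, 88360453 to 88361244, minus strand) and Rps3a3 (chromosome 13, 108807137 to 108807931, plus strand) differed from the 6-exon Rps3a1 transcript of chromosome 3 at 4 of 792 and 9 of 795 bases. Gm16589 (chromosome 8, 4137658 to 4138575, plus strand) differed from Aida of chromosome 1 at 7 of 918 bases. Gm9118 and Gm6477 (both chromosome 10, plus strand, 56373437 to 56374190 and 39074534 to 39075297) were 97.3% and 96.2% identical to Npm1 of chromosome 11. Gm7240 (chromosome 13, 62008630 to 62009293, plus strand) was only 89.3% identical to its best match, the zinc finger gene Zfp934 of the same chromosome. It is annotated as a transcribed processed pseudogene inside the non-coding RNA gene 1700028E11Rik, and its parent is therefore uncertain.

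The following 120-base stretches show how little separates a copy from its parent, and thus what a read must cover to be assigned to one of them. Each stretch is the gap-free coding window chosen for the most differing bases, so other stretches hold as many or fewer. Each copy's stretch is set beside the parent's coding sequence, in lower case with capitals at bases where parent and copy differ. In the Rps3a1 line a capital marks a difference from either copy, so its G differs from Rps3a3 only and its last A from Rps3a2 only. The Ahcyl stretch is chr16:45974902-45975021 on the minus strand, the Rps3a2 stretch chr14:88360600-88360719 on the minus strand, the Rps3a3 stretch chr13:108807662-108807781 on the plus strand, and the Gm16589 stretch chr8:4137658-4137777 on the plus strand, which holds the start codon of Aida.
Ahcy: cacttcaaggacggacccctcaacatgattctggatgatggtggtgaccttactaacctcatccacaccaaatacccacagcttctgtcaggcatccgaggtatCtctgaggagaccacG
Ahcyl: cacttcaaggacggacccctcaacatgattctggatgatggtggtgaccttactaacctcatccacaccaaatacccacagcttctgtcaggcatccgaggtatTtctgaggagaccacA
Rps3a1: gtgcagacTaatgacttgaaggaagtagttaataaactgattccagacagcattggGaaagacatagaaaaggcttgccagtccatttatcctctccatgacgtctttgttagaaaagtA
Rps3a2: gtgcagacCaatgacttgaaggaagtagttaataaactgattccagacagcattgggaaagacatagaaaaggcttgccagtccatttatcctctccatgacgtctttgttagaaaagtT
Rps3a3: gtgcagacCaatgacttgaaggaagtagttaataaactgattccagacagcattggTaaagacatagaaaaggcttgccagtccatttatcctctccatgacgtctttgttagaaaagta
Aida: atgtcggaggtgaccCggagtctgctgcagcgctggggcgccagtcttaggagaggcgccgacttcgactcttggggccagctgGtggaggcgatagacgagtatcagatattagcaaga
Gm16589: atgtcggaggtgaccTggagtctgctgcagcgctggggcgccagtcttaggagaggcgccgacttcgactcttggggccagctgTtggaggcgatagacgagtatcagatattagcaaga
The stretches carry 2 differences each between Ahcy and Ahcyl and between Aida and Gm16589. Over the whole copy, 82.6% of the 100-base windows of Ahcyl, 53.4% of those of Rps3a2, 44.9% of those of Gm16589 and 18.4% of those of Rps3a3 occur letter for letter in the parent transcript. The shares were 18.9% for Gm9118, 9.02% for Gm6477 and 0.531% for Gm7240. Longer windows were shared less often. Of the 150-base windows, 74.4% of those of Ahcyl, 36.4% of Rps3a2, 21.8% of Gm16589 and 10.2% of Rps3a3 occur in the parent transcript. For Gm9118, Gm6477 and Gm7240 these shares were 3.97%, 0.488% and 0%. The authors' program divided such reads between genes by estimate, so the division within a family is less certain than the sum over it.

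The depth ranged from 29751486 to 83469037 counts per animal, and a floor of 3 counts stood at 0.0359 to 0.101 CPM, counts scaled to the library size. The control litter P6H63 stood apart from the other 9 litters. Its microglia marker score, the mean log2 CPM of 8 of the 9 listed genes, was 6.85 to 7.46 against 10.2 to 11.2 in all other animals, and its astrocyte score was 9.21 to 9.50 against 6.36 to 8.51. The P7 fold changes are therefore given with and without this litter. Both P7 control litters also stood above the HIE pups of that day in the choroid plexus score, at 6.50 to 7.94 against 5.11 to 5.91, and in the endothelial score, at 6.66 to 7.87 against 6.14 to 6.53, each over 5 of 5 genes. The part of these scores in the P7 differences was not tested.

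Rps3a2 and Rps3a3 were either abundant or scarce, and always together. They lie on different chromosomes but are 99.0% identical to each other over 791 aligned positions. Reads can thus be shared between the copies as well as with the parent, and the part of this in their likeness was not tested. In the 4 control pups at P7 Rps3a2 stood at 104, 134, 81.5 and 74.6 CPM, and in the 4 HIE pups of that day at 4.47, 5.08, 4.15 and 4.23 CPM. At P14 it stood at 98.2 and 107 CPM in both pups of the control litter P4H4, at 2.17 and 84.2 CPM in those of P6H8, and in the HIE group at 2.89 and 3.29 CPM in P4H1 and 89.5 and 2.64 CPM in P6H12. The hypoxia pups had 2.88, 3.54, 1.79 and 2.35 CPM. Thus the P7 groups did not overlap, the HIE and control groups of P14 overlapped through 1 pup each of P6H8 and P6H12, and no pup lay between 5.08 and 74.6 CPM. Rps3a3 followed in the same 8 animals, with 52.5 to 96.6 CPM in these and 0.0301 to 3.74 CPM in the other 12, of which 2 had 3 counts or fewer. Across the 20 animals Pearson's r between both genes' log2 CPM was 0.95.

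**Figure D1:**
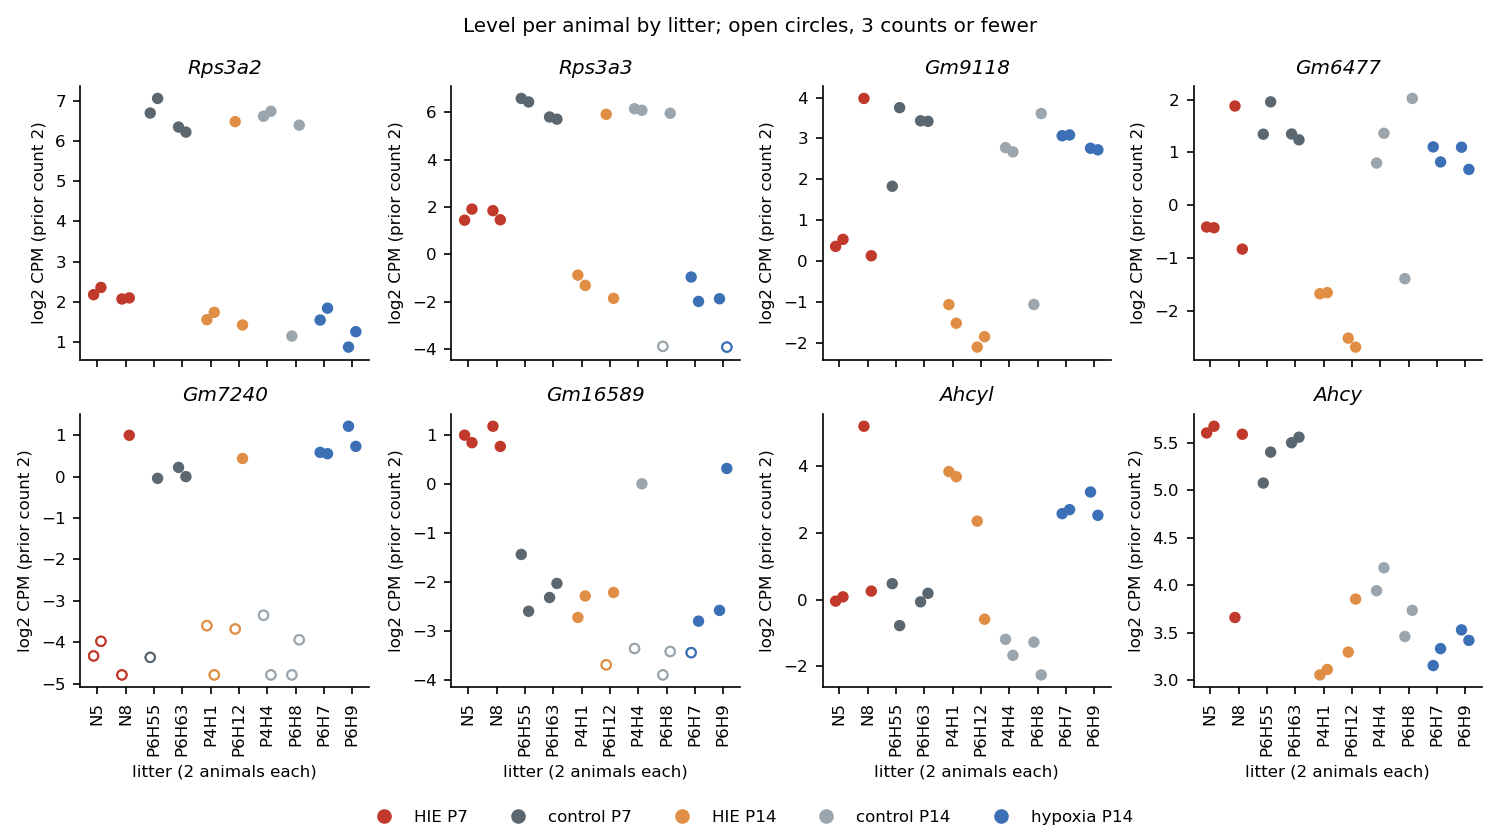
Level of each of the 8 genes per animal, as log2 CPM with a prior count of 2, with the pups of a litter side by side, colours for the 5 groups and open circles for 3 counts or fewer. Rps3a2 and Rps3a3 fall into a high set of 8 animals and a low set of 12, and littermates stand on opposite sides in P6H12 and P6H8.

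The parent Rps3a1 ran the other way. Its level was 497 to 578 CPM in the HIE pups at P7 and 184 to 347 CPM in the controls, and in P6H12 it was 262 CPM in the pup with high copies and 439.9 CPM in its littermate. The copies took 34.3% to 42.0% of the family's reads in the 8 high animals and 0.389% to 1.53% in the other 12. For the HIE pup P6H12-11M the share was 36.4%, with a 95% Wilson interval of 35.9% to 36.9% that covers counting error only. This pup had 2 libraries, which gave 36.5% and 36.3% separately. Among the 22411 other genes with a mean of at least 10 counts, Rps3a1 had the lowest correlation of all with Rps3a2 (r = -0.82) and the second lowest with Rps3a3 (r = -0.73), which are descriptions over animals that share litters.

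Gm9118 and Gm6477, both copies of Npm1, also moved as a pair (r = 0.97), in another set of animals than the Rps3a copies. These 2 copies are 97.9% identical to each other over 758 aligned positions, and the part of shared reads in their likeness was not tested. Gm9118 stood at 1.24, 1.41, 15.8 and 1.05 CPM in the HIE pups at P7, at 3.51, 13.5, 10.8 and 10.7 CPM in the controls of that day, and at 6.56 to 8.46 CPM in the 4 hypoxia pups. At P14 it was 0.195 to 0.440 CPM in all 4 HIE pups, and 6.81, 6.33, 0.441 and 12.2 CPM in the controls. In the litters N8, P6H55 and P6H8 the copies' share of the Npm1 family was high in only 1 of the 2 pups, 1 litter each of the HIE P7, control P7 and control P14 groups. With a split set at 3%, the copies gave 4.70% to 10.3% of the Npm1 family's reads in 11 animals and 0.191% to 1.995% in 9. Gm6477 ran from 0.12 to 4.02 CPM. In P6H55-12, low by share, Gm6477 stood at 2.50 CPM, within the 2.32 to 3.84 CPM of the other P7 controls. The largest gap in level lay between 1.41 and 3.51 CPM for Gm9118 and between 0.716 and 1.56 CPM for Gm6477. P6H55-12 was above both gaps, each time among 12 animals, so its litter was split by share only. This pup had the highest Npm1 level, 296 CPM. Npm1 itself varied less, from 142 to 296 CPM, and its lowest level of a P7 pup was in P6H63, at 159 CPM.

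Gm16589, the copy of Aida, was high in all 4 HIE pups at P7, at 1.95, 1.75, 2.21 and 1.66 CPM, against 0.333, 0.13, 0.165 and 0.209 CPM in the 4 controls. At P14 it stood at 0.0418 to 0.180 CPM in the HIE pups, and only single pups were high, with 0.963 CPM in P4H4-8M of the controls and 1.20 CPM in P6H9-15F of the hypoxia group. The littermates of these pups had 0.0619 and 0.132 CPM. The P7 groups did not overlap, while at P14 the level belonged to single pups and not to a litter or group. Gm16589 took 3.15% to 5.49% of the Aida family's reads in the 6 high animals and at most 0.871% elsewhere, and Aida varied little, from 27.4 to 44.9 CPM over all animals.

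Gm7240 came nearest to presence against absence: 11 animals had 3 counts or fewer, 9 had 30 or more, and none lay between. It was at 1.47, 1.43, 2.29 and 1.62 CPM in the hypoxia pups, whereas the 4 controls at P14 had 2 counts or fewer each. In the HIE group at P14 the 1 pup above the floor was P6H12-14F, at 1.32 CPM, and at P7 it was N8-4, at 1.96 CPM, while 3 of the 4 P7 controls stood at 0.936 to 1.13 CPM. Littermates were on opposite sides in N8, P6H55 and P6H12. The hypoxia and control groups of P14 did not overlap, but the HIE and control groups did on either day. Zfp934, its best match, stood between 3.38 and 6.57 CPM everywhere and did not mirror it (r = 0.34).

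Ahcyl, the 1 copy annotated as protein-coding, ran from 0.174 to 36.5 CPM. It stood at 36.5 CPM in the HIE pup N8-3 at P7, against 0.933 to 1.16 CPM in the other 3 HIE pups and 0.547 to 1.36 CPM in the controls. At P14 the HIE pups had 14.2, 12.8, 5.06 and 0.630 CPM, the hypoxia pups 5.92, 6.43, 9.29 and 5.72 CPM, and the controls 0.174 to 0.403 CPM. At P14, therefore, neither the HIE nor the hypoxia group overlapped the controls, although 1 HIE pup, P6H12-14F, was close to them. In N8 and P6H12 only 1 littermate was high.

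Ahcy, by contrast, was lowest on each day in pups with much Ahcyl. At P7 it stood at 12.6 CPM in N8-3, against 48.3 to 51.2 CPM in the other HIE pups and 33.8 to 47.2 CPM in the controls. At P14 the controls had 15.3, 18.1, 11.0 and 13.3 CPM, the HIE pups 8.26, 8.60, 9.77 and 14.4 CPM, and the hypoxia pups 8.85, 10.02, 11.5 and 10.7 CPM, so that both groups overlapped the controls. Over the family, Ahcyl took 74.3% of the reads in N8-3 (95% Wilson interval 72.8% to 75.8%), 59.8% to 63.2% in both pups of P4H1, 34.1% in P6H12-11M, 34.9% to 44.7% in the hypoxia pups, and 1.28% to 4.18% in the other 12. The 2 libraries of P4H1-6F gave 59.6% and 60.0%, and those of P6H12-11M 31.7% and 36.8%. Over the 20 animals Ahcy had the correlation with Ahcyl that ranked 152 from the lowest among 22411 genes (r = -0.49). With the means of each day subtracted, an alternative chosen after seeing the data, it ranked lowest (r = -0.81).

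**Figure D2:**
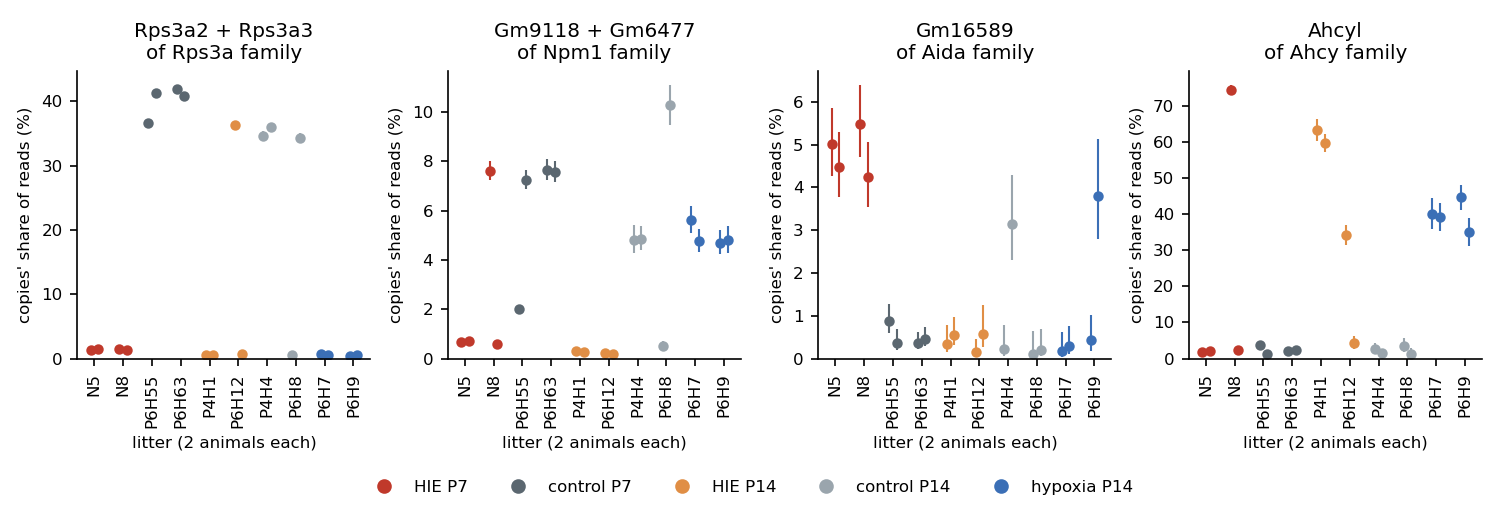
Share of a family's reads, parent plus listed copies, that was assigned to the copies in each animal, in percent, with 95% Wilson intervals that cover counting error only. The Rps3a copies hold either 0.389% to 1.53% or 34.3% to 42.0%, and Ahcyl either at most 4.18% or at least 34.1%.

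Sums over a family varied less than its parts where the copies took much of it. The 4 HIE pups at P7 had Ahcy levels with a coefficient of variation of 45.9%, and sums of Ahcy and Ahcyl of 49.6, 52.2, 49.1 and 49.4 CPM with a coefficient of 2.84%. The pup N8-3 had 12.6 CPM of Ahcy where its littermate had 48.3 CPM, and their sums were 49.1 and 49.4 CPM. For Rps3a1 in the HIE pups at P14 the coefficient fell from 34.6% to 20.8% with the copies added. In the P7 controls it was 32.4% without and 29.8% with them, and the low sums there, 327.5 and 311 CPM against 547 and 534 CPM, were those of P6H63. In the hypoxia group, where all 4 pups had much Ahcyl, the sum of both genes was no less variable than Ahcy alone (15.1% against 10.9%).

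**Figure D3:**
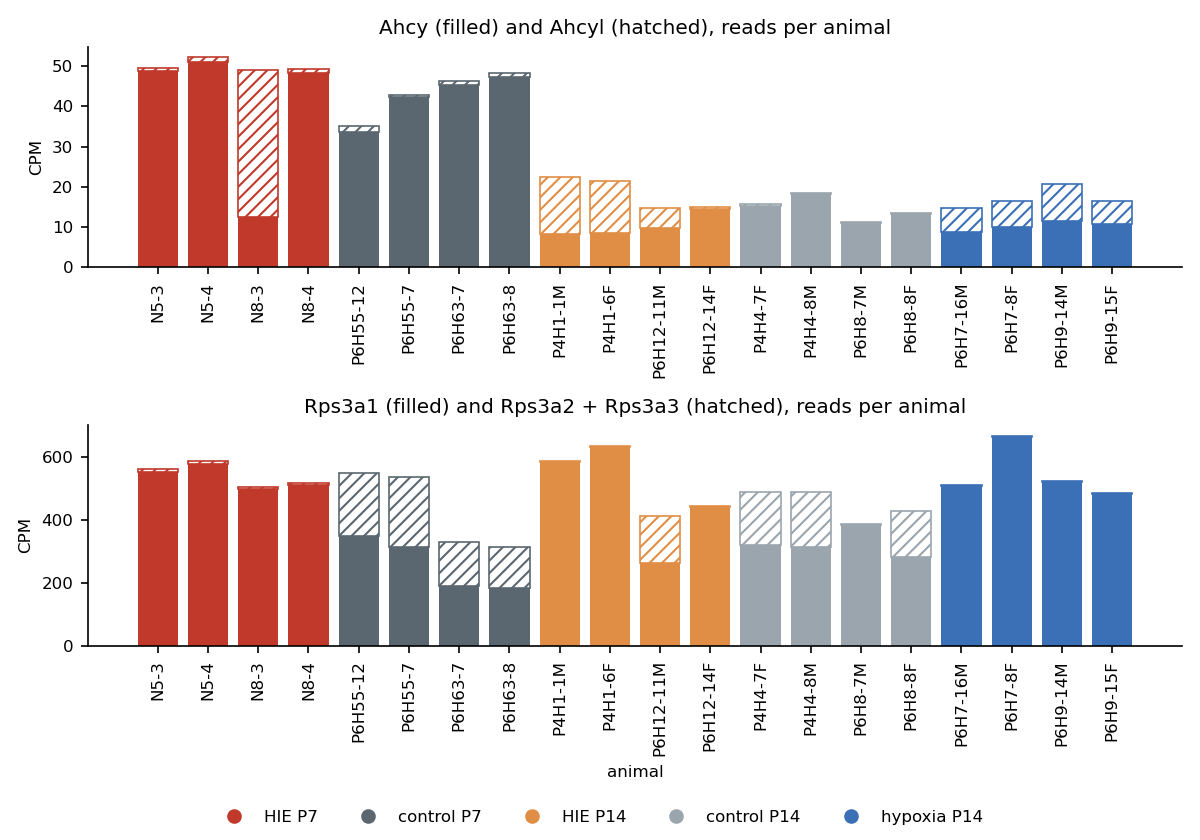
Reads of Ahcy and Ahcyl (top) and of Rps3a1 and its copies Rps3a2 and Rps3a3 (bottom) in each animal, stacked, in CPM, with the parent filled and the copies hatched. The bar of N8-3 is mostly Ahcyl but is as high as those of the other HIE pups at P7.

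The groups of the study were compared by edgeR's quasi-likelihood test over all genes. At P7, 3 of the 8 members passed an adjusted p of 0.05, with Rps3a2 (log2 fold change -4.45 ± 0.21, SE) and Rps3a3 (-4.52 ± 0.26) lower in HIE pups and Gm16589 (3.16 ± 0.32) higher; of all genes tested 0.0666% passed. Without the litter P6H63 the log2 fold changes were -4.72, -4.84 and 3.02, and Gm16589 no longer passed. Nor did it pass without any 1 of the 4 HIE pups or of the 2 pups of P6H63. At P14 none of the 6 members tested passed in HIE against control, beside 0.00478% of all genes. By edgeR 4 were under an unadjusted p of 0.05, beside 2066 of all 20934 genes. DESeq2 called 3 (Ahcyl, Gm9118 and Gm6477), beside 490 of all genes. Gm7240 and Gm16589 fell to the filter on low counts there. Without the HIE pup P6H12-14F, Ahcyl passed, and without the control pup P6H8-7M, Gm9118 and Gm6477 passed. In hypoxia against control, 2 of the 7 members tested passed, Ahcyl (4.47 ± 0.31) and Gm7240 (6.07 ± 0.59), both higher, beside 0.00955% of all genes. Without P6H8-7M, Rps3a2 and Rps3a3 passed as well, and Gm7240 did not without P4H4-8M, P6H8-8F or P6H9-15F. These were the same contrasts in which the members were noticed, so nothing is read from the counts. The fitted value for Gm7240 depends on the prior count, since its controls were at or under the floor.

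The parent genes were found by sequence and were tested in the same fits, in which the P14 comparisons share their controls. None of the 5 parents passed in any of the 3 comparisons. Under an unadjusted p of 0.05 by edgeR there were 1, 3 and 2 of the 5 in P7 HIE, P14 HIE and P14 hypoxia. Among all genes tested there were 6143 of 22517, 2066 of 20934 and 1996 of 20953. DESeq2 called 1, 0 and 1 of the parents, each time Rps3a1, beside 3024, 490 and 164 of all genes. Rps3a1 was 1.05 ± 0.23 (log2, SE) higher in HIE at P7, with an adjusted p of 0.15 by edgeR and n = 4 per group, and 0.33 ± 0.21 when its copies were added (adjusted p = 0.31 by edgeR). Without P6H63 these values were 0.70 ± 0.09 (adjusted p = 0.0622 by edgeR) and 0.01 ± 0.09 (adjusted p = 0.959 by edgeR), so that the higher sum of the HIE pups rested on that litter. Npm1 was 0.38 ± 0.21 higher at P7 with both control litters and 0.08 ± 0.13 without P6H63, and neither value passed. For Rps3a1 at P14 the log2 difference was 0.56 ± 0.24 in HIE and 0.74 ± 0.13 in hypoxia. With its copies added it was 0.21 ± 0.15 and 0.28 ± 0.13, and the adjusted p of these values by edgeR ran from 0.406 to 0.734.

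With all animals, Ahcy changed its sign with its copy. Its log2 difference was -0.07 ± 0.39 in HIE at P7, -0.50 ± 0.21 in HIE at P14 and -0.49 ± 0.17 in hypoxia at P14. With Ahcyl added, these became 0.22 ± 0.11, 0.32 ± 0.19 and 0.21 ± 0.17. None of the 6 values passed the test, with adjusted p by edgeR of 0.225 to 0.913, so no direction is claimed for Ahcy or for the sum. Without the pup N8-3 the P7 value of Ahcy alone was 0.23, and without the litter P6H63 it was 0.09 alone and 0.37 with Ahcyl. For Npm1 and Aida, whose copies held few reads, adding them moved the log2 difference by less than 0.1 in every comparison.

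**Figure D4:**
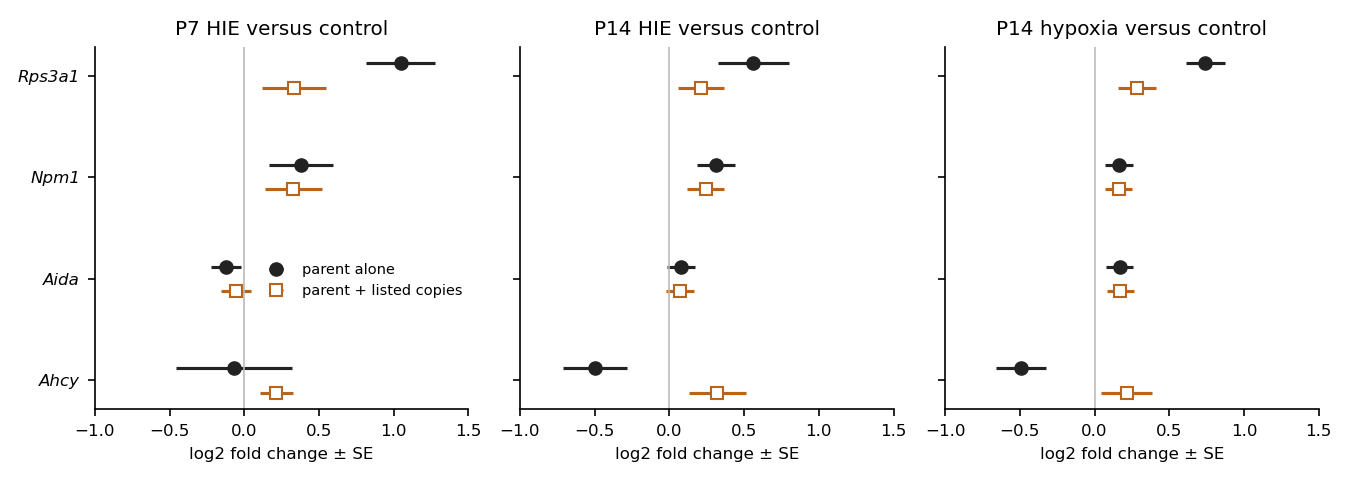
Log2 fold change of 4 parent genes alone (circles) and with their listed copies added (squares), with SE as bars, in the 3 comparisons of 4 against 4 animals. The values of Ahcy lie below 0 alone and above 0 with Ahcyl added (without the litter P6H63 the P7 value alone is 0.09), and those of Rps3a1 move towards 0, from 1.05 to 0.33 in P7 HIE, or from 0.70 to 0.01 without P6H63.

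The members varied between litters and also between littermates. Of the whole spread of log2 CPM over the 20 animals, differences between the 10 litters held 68.1% (Gm7240) to 88.8% (Ahcy), and differences between littermates the remaining 11.2% to 31.9%. Over all genes the median share between litters was 86.2%, over processed pseudogenes 79.9%, and the degrees of freedom alone give 47.4%. Most of it lay between the 5 groups, with 53.1% to 80.3%, beside an all-gene median of 55.5% and 21.1% from the degrees of freedom alone. Only 5.65% to 18.6% lay between the litters of a group. That was below the all-gene median of 25.3% and the 26.3% that the degrees of freedom alone give. The groups differed by day and deposited table as well as by treatment, and each litter had 1 treatment. The share between groups therefore cannot be assigned to treatment, day, table or litter. Ahcy, with the largest share, had group means of 40.2 and 42.2 CPM at P7 and 10.3 to 14.4 CPM at P14.

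Within the groups, no member had both pups of 1 litter at 3 counts or fewer and both pups of the other litter of its group at 30 or more; 0.201% of the genes that reached 30 counts in an animal did. Rps3a2, Gm9118, Gm6477, Ahcyl and Ahcy had no animal at 3 counts or fewer and could not meet this rule. Between littermates, 3 members split in this way, Rps3a3, Gm16589 and, in 3 litters, Gm7240, beside 1.89% of those genes and 8.94% of the processed pseudogenes among them. As the members were chosen for such contrasts between animals, nothing is read from these counts. Littermates were over 3 apart on the log2 scale in at least 1 litter for 7 of the 8 members, the exception being Ahcy at 1.93. Of the 22412 genes with a mean of at least 10 counts, 2.76% were, and of the processed pseudogenes among them 12.6%. The largest gap was 9.86 for Rps3a3 in P6H8, a litter whose pups had no library suffix in common. Littermates differed by 1 or less on the log2 scale in 5 of 10 litters for Gm7240, in 6 for Rps3a3 and Gm16589, and in 7 to 9 for the other 5 members.

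The share of the spread within groups that lay between litters was 46.5% for Ahcyl, 42.8% for Ahcy, 40.0% for Gm16589, 35.2% for Rps3a2, 32.0% for Gm7240, 31.9% for Rps3a3, 21.8% for Gm9118 and 19.9% for Gm6477. The median over all genes was 62.1%, and over processed pseudogenes 45.5%. All 8 members were below the first, and the degrees of freedom alone give 33.3%. Without the P7 control group, which holds P6H63 and P6H55, the all-gene median was 49.7% and the members held 19.4% to 47.6%.

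**Figure D5:**
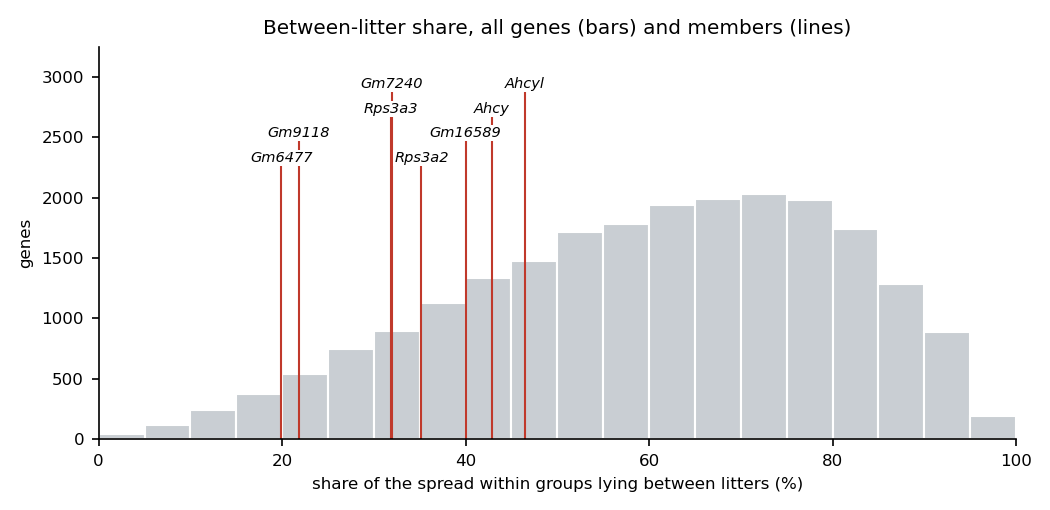
Number of genes (bars, steps of 5%) by the share of their spread within groups that lay between litters, with the 8 members as lines. The members lie between 19.9% and 46.5%, all below the all-gene median of 62.1%.

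The genes whose log2 CPM most resembled each member's over the 20 animals were listed by Pearson's r, as a description. Besides each other, the 5 genes most like Rps3a2 and Rps3a3 included for both Cd1d2 (r = 0.84 and 0.75) and 6430573P05Rik (0.80 and 0.78), both on chromosome 3, where their parent lies. For Gm9118 and Gm6477 the next was Gm5611 (0.81 and 0.86), a further Npm1 copy, on chromosome 9. It is 95.1% and 94.3% identical to them. Gm16589 was most like Ube2l6 (0.85), Rcbtb2 and Slc43a3 (0.80 each), and Gm7240 like Fancc (0.76), on its own chromosome. For Ahcyl the list held Znf41-ps (0.72), Slc28a2 (0.71), Mtrf1 (0.68), Phf20 (0.66) and Cog6 (0.66), of which Slc28a2 and Phf20 lie on chromosome 2 with Ahcy. Ahcy was most like Usp49 (0.93) and Depdc1b (0.92), a list that shared 0 of 5 genes once the means of each day were subtracted.

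Positions were compared for the 50 genes of strongest correlation in either direction, a measure chosen after the values were seen. Within 5 Mb of the parent, and leaving out the family itself, lay 3 of the 50 for Rps3a2 (Cd1d2, Gatb and Muc1), 3 for Ahcyl (Phf20, Procr and Map1lc3a), 2 for Rps3a3, 1 for Gm16589 and 0 for Gm9118 and Gm6477. Of all genes, 0.772% lay within that distance of Rps3a1, 0.750% of Ahcy, 0.437% of Aida and 0.290% of Npm1. Within 5 Mb of the copy itself there were 0 for each of these 6 copies. For Gm7240, whose best match lies on the same chromosome, 4 of the 50 lay near the match and 3 near the copy, including Fancc both times. Of all genes, 0.509% and 0.397% lay there. Both windows largely cover the same region, since the match starts at 62620860 and the copy at 62008630. These genes share litters, libraries and depth with the members, and why they resemble them was not tested.

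Further annotated copies of the same parents had low mean levels, though some varied widely. Of 24 such copies of Rps3a1, Npm1, Aida and Ahcy outside the list, 9 had 3 counts or fewer in every animal, and the highest mean was 1.05 CPM, for the Rps3a1 copy Gm13408. Another Rps3a1 copy, Gm5586, ran from 0 to 5.25 CPM, a span of 7.19 on the log2 scale. Spans were 4.19 for the Rps3a1 copy Gm7600 and 4.00 for the Ahcy copy Gm9826. The Npm1 copies Gm5611 and Gm17922 spanned 4.62 and 4.65. Gm13408 spanned 3.02, while the 7 listed copies spanned 4.70 (Gm6477) to 10.5 (Rps3a3). A wide span was therefore not particular to the listed copies. The Npm1 copy Gm15484 had the highest mean of its family, 0.425 CPM, and the Ahcy copy Gm9826 one of 0.127 CPM. Rps3a3 lies within Pde4d, a phosphodiesterase gene read on the same strand, but Pde4d stood at 15.6 to 32.5 CPM throughout and its level was not like that of Rps3a3 (r = -0.06). The coding gene next to Gm16589, Cd209f, ranged from 10.2 to 92.4 CPM (r = 0.21).

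The other genes of the methionine cycle, which supplies S-adenosylmethionine and disposes of homocysteine, did not pass the test in the fits with all animals. Of 19 such genes tested at P7 beside Ahcy and Ahcyl, edgeR called 0, with 6 under an unadjusted p of 0.05, and DESeq2 called 3. Of all 22517 genes, 6143 were under that unadjusted p by edgeR, and DESeq2 called 3024. The median log2 difference of the 19 was -0.12 beside -0.08 over all genes. Without P6H63 edgeR called 0 of 19, with 3 under an unadjusted p of 0.05, beside 3838 of 23274 genes. The median there was 0.00 beside -0.02. Without P6H55, with P6H63 as the only controls, edgeR called 14 of 20, beside 13904 of all 23780 genes. In both P14 comparisons 0 of 18 were called by either tool. By edgeR 0 in HIE and 3 in hypoxia were under an unadjusted p of 0.05, beside 2066 of 20934 and 1996 of 20953 genes. The medians were 0.07 and -0.05 beside 0.01 and -0.01. The genes of highest mean CPM were Mtr, methionine synthase, Ahcyl1, a relative of Ahcy that regulates calcium release, and Mat2a, which makes S-adenosylmethionine. Mtr stood at 216 ± 6.12 CPM (SD, n = 4) in HIE at P7 and 132 ± 74.7 CPM in the controls, of which the pups of P6H55 had 177 and 214 CPM and those of P6H63 had 74.1 and 63.6 CPM. Mat2a stood at 189 ± 6.55 CPM in HIE, and in the controls at 187 and 192 CPM in P6H55 and 147 and 149 CPM in P6H63.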

How the data were processed

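Libraries from CD11b+ cells enriched on magnetic beads were depleted of ribosomal RNA. Alignment was to GRCm39 by STAR, and the authors deposited RSEM expected counts per gene, unscaled, in which a read matching several genes is shared out among them. Between 84.2% and 88.0% of values were whole. The expected counts were rounded, and the 2 libraries of 2 animals summed, which left 20 animals. Symbols and positions came from GENCODE M39, which matched 56017 of 56691 genes. CPM used TMM factors within each table, and log2 CPM a prior count of 2. Genes were tested with edgeR 4.0.16 (quasi-likelihood, filterByExpr, Benjamini-Hochberg over all genes) and, as an alternative, DESeq2 1.42.0. On simulated data edgeR recovered 139, 158 and 163 of 200 genes changed by 2 on the log2 scale in P7 HIE, P14 HIE and P14 hypoxia. Parents were the best transcript matches by BLAST+ 2.17.0. The named genes were the 8 members, their parents, the 5 genes of highest Pearson's r per member, up to 3 further copies per parent, neighbours, and methionine cycle genes called or else the 3 of highest mean CPM. Members and lists were chosen with earlier results of these data known. Nothing in the labels says which dams the pups came from, so p-values measure the spread between these animals. The fits took the 4 pups of a group as independent. If a shared prefix means 1 dam, each group holds only 2 treated litters, and the SE and p-values can be too small.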

Additional observations from a re-analysis of the deposited data

Results flagged for a closer look

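Of 100 sets of 4 animals examined (the members, their parents, and the families' shares and sums, each in 5 groups), 21 had a highest or lowest animal whose gap to the next, divided by the whole range, was beyond Dixon's limit, a limit that chance passes in about 1 of 20 sets. The members were chosen because some animals stood apart from others, and the sets are not independent, so the number is not set against that rate. Most belonged to 3 animals. The HIE pup N8-3 at P7 was highest for Ahcyl (ratio 0.943), Gm9118 (0.896), Gm6477 (0.846), the share of Ahcyl in its family (0.994), the share of the Npm1 copies (0.98) and the Aida family sum (0.863), and lowest for Ahcy (0.958). The HIE pup P6H12-11M at P14 was highest for Rps3a2 (0.938), Rps3a3 (0.874) and their share (0.998). The control pup P6H8-7M at P14 was lowest for the same genes and share (0.939, 0.981 and 0.953).

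The remaining 8 were spread over 6 animals. The control pup P4H4-8M was highest for Gm16589 (0.862) and for its share (0.965), the hypoxia pup P6H9-15F for the share of Gm16589 (0.926), and the hypoxia pup P6H7-16M for the share of the Npm1 copies (0.886). At P7 the HIE pup N8-4 was highest for Gm7240 (0.86), the control pup P6H55-7 highest for Gm6477 (0.847), and the control pup P6H55-12 lowest for Gm7240 (0.942) and for the share of the Npm1 copies (0.927).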

How the results depend on the processing

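The numbers of genes called depended on the tool and on single animals. At P7 edgeR called 15, against 3024 in DESeq2, 26 without the control litter P6H63 and 13904 without P6H55 (both litter choices made after seeing the data), and 10 to 5588 without single animals, the last without the control pup P6H55-7. In P14 HIE it called 1, against 490 in DESeq2, 2 with library size only, 3 without a filter, and 0 to 6 without single animals. In P14 hypoxia it called 2, against 164 in DESeq2, 1 with parent and copies summed (added after seeing the data), and 1 to 7 without single animals. Of the methionine cycle genes at P7 it called 0, and 14 without P6H55. Among the parents, Rps3a1 passed at P7 in DESeq2 (1.07), without P6H55-7 (1.18, within 0.91 to 1.22 over single animals left out) and without P6H55 (1.55), and in P14 hypoxia in DESeq2 (0.75); without P6H55, Npm1 (0.80) and Aida (-0.23) passed too. Without P6H63, Rps3a1 at P7 was 0.70 and Npm1 0.083, down from 1.05 and 0.38, and neither passed; Aida reversed to 0.043 and Ahcy to 0.086, and with the copies summed to 0.10 and 0.37. Ahcy at P7 ran from -0.20 to 0.23 over single animals left out, and with Ahcyl summed it reversed to 0.22, 0.32 and 0.21 in the 3 comparisons. The span of Gm7240 rose from 6.01 to 7.99 on the log2 scale with a prior count of 0.5. The count of genes all-or-none between litters went from 46 to 27 with absence at 0 counts and 401 with presence at 10, and between littermates from 433 to 235 and 4312, where 1 of the 3 members remained with absence at 0. The other 296 alternatives of these results kept direction and side of the threshold, or moved by less than the spread. No paired analysis was possible because replicate numbers were given in accession order only and every litter had 1 treatment. With 2 pups a litter and 1 treatment per litter, litter and treatment cannot be told apart, and counts under 30 limit Gm7240 and Gm16589.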
